A study of Mus musculus with 8 samples.

Results

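Cytosolic ribosomal protein genes encode the proteins that, with ribosomal RNA, build the small and the large ribosomal subunit. The genes analysed were those with a protein-coding mouse symbol of the Rpl or Rps series, together with Rplp0, Rplp1, Rplp2 and Rpsa. Genes annotated as pseudogenes and the Rps6k kinases were left out. This rule found 80 genes of the 50686 in the table, 48 of the large and 32 of the small subunit, and all 80 were counted in every library and passed the filter on low counts (lowest count 111).

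The question was how these genes differed in mouse embryonic stem cells (mESCs) by location, Rad9 genotype and culture duration. There were 8 libraries of mRNA, 1 for each condition, and the cells were grown aboard the SJ-10 satellite (space) or in an identical payload on the ground. R9wt denotes wild-type mESCs and R9del denotes Rad9-/- mESCs, which lack a component of a DNA damage checkpoint clamp; cells were fixed in RNAlater after 1 day (D1) or 5 days (D5). Each condition was 1 culture. D1 and D5 cells were held in devices with separate temperature control and were seeded at different numbers. D1 cells were fixed earlier and so were stored longer in RNAlater. For D5 more R9del than R9wt cells were seeded. Culture duration therefore cannot be told apart from device group, seeding and storage, nor genotype from seeding at D5. By the study's list, space differed from ground in microgravity, radiation, other environmental stress and vibration at launch and return. These cannot be told apart within location.

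Total counts ranged from 58238440 to 96416907 per library, and the 2 deepest libraries were Ground_R9wt_D1 and Ground_R9wt_D5. Levels are given as counts per 1000000 counts (CPM), scaled between libraries by the trimmed mean of M values (TMM), and 3 counts correspond to at most 0.0503 CPM. Rad9 lay at 70.3 to 93.4 CPM in the 4 R9wt libraries and at 20.8 to 28.6 CPM in the 4 R9del libraries, so the groups did not overlap. All 10 embryonic stem cell markers were detected in every library, with a summed level of 4815 to 8646 CPM. Of these, 1 was called higher in space, Esrrb (74.7 to 111 CPM against 34.8 to 47.7 on the ground), and 1 lower, Sox2 (84.6 to 125 against 151 to 254 CPM), and Utf1 did not overlap either (282 to 452 against 494 to 872 CPM). Of 9 primitive endoderm markers, all detected in every library, the summed level was 238 to 1155 CPM in space and 189 to 335 CPM on the ground, and 305 to 1155 CPM at D5 against 189 to 359 CPM at D1. Most of this sum was Lama1 and Col4a1, which encode basement membrane proteins, and 7 of the 9 had a log2 fold change above 0 in space, with a median of 1.35 and none called higher. In D5 against D1 all 9 were above 0, also with a median of 1.35, and none was called. At an unadjusted p under 0.05, 5 of them were higher at D5 (all genes 3%), and 3 did not overlap (all genes 1.68%). At D5 the transcription factor Gata6 was at 13.2 and 14.3 CPM in space and at 4.62 and 4.55 CPM on the ground. At D1 it was lower in space, at 1.81 (R9wt) and 4.19 (R9del) CPM against 3.20 and 4.55 CPM on the ground. The 1 primitive endoderm marker called lower in space was Sox17, at 0.0597 to 0.770 CPM in space and 2.42 to 6.11 CPM on the ground. The 10 fibroblast markers summed to 29.4 to 63.5 CPM, with 1 to 4 of them at 0 in each library. These marker levels move with location and culture duration, and their part in the results was not tested. In RNA from whole cultures, fewer cells of a type and less RNA per cell cannot be told apart.

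Growing cells make ribosomal proteins in matched amounts, and their mRNAs are among the most abundant in stem cells. These mRNAs begin with a run of pyrimidines, the terminal oligopyrimidine (TOP) motif, through which the mTOR kinase and the RNA-binding protein Larp1 control their translation. Most of the genes have left many processed pseudogenes in the genome, so short reads from one gene can match several places.

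Runs of pyrimidines near the annotated start are shown for 9 genes on which the comparisons turn; they are runs of letters and were not matched to the first base of the mRNA. Each window was taken from the RefSeq promoter of the gene (GRCm38.p6), which spans 250 bases before to 50 bases after its start, and placed by exact match on mm9, the build of the study; capitals mark the longest run of C or T, on the gene's strand, that has at least 1 base within 30 bases either side of the annotated start, counted to its ends. A run of at least 8 such bases was found in 40 of the 60 genes with a promoter entry (66.7%), against 27.2% of all 27025 promoters. With only the bases inside these limits counted, it was 31 genes (51.7%) against 22.8%.
Rps2: actataaattgTCCCTTCCgcggcgcctcc
Rpl13: cgtgacgtcaCTTCCCTTTCgcctgatttt
Rpl35: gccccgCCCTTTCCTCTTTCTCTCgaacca
Rps7: ctgtccccaCCTCTTTTCTTCCgccacccg
Rps4x: agcgcgcgcgcagCCTCCgaccctaatttc
Rps27: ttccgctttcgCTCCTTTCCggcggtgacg
Rpl39l: aacacccactgCCTCTCCCTagctcccagg
Rpl15: gagaaagCCTTCTTCCTTTCCTCTggcggc
Rpl22: ccgtctgaCTCCTCCCTTTCCCgacagccg

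The windows lie at chr17:24857023-24857052 (plus strand, Rps2), chr8:125626224-125626253 (plus, Rpl13), chr2:38860635-38860664 (minus, Rpl35), chr12:29320776-29320805 (minus, Rps7), chrX:99384687-99384716 (minus, Rps4x), chr3:90017554-90017583 (minus, Rps27), chr16:10170284-10170313 (plus, Rpl39l), chr14:19103482-19103511 (minus, Rpl15) and chr4:151699788-151699817 (plus, Rpl22). The run was 18 bases long in Rpl35, 17 in Rpl15, 14 in Rpl22, 13 in Rps7 and 10 in Rpl13, and only 5 in Rps4x. With the first base of the RefSeq transcript as 1, the run began at -7 in Rpl35, -4 in Rpl15 and -2 in Rps27 and thus spanned the start. It lay wholly before the start in Rpl22 (from -39), Rpl39l (from -26) and Rpl13 (from -16), and inside the transcript in Rps7 (from 23), Rps2 (from 27) and Rps4x (from 28). Across the 60 genes its median length was 9 bases, against 6 over all promoters. Of motifs searched on both strands of the promoters, the ETS letters CCGGAAG were present in 24 of 60 (40%, all promoters 9.12%) and the YY1 letters AAGATGGC in 4 (6.67%, all promoters 2.88%). The letters TATAAA were present in 8.33% of them (all promoters 14.2%) and the E-box CACGTG in 8.33% (all promoters 7.24%). A match describes the letters alone and is not evidence of a bound site.

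Levels per kilobase of coding sequence, averaged over the 8 libraries, ran from 2.79 to 4069 CPM per kb, with a median of 406. The highest was Rps4x (X-linked, small subunit) at 4069 CPM per kb, and other high levels were those of Rpl4 at 3106 and Rpsa (also described as a laminin receptor) at 2156. The lowest were Rpl10l at 65.8, Rpl39l at 56.4, Rpl24 at 41.1, Rpl29 at 18.2 and Rpl3l at 2.79 CPM per kb. Rpl10l, Rpl39l and Rpl3l are paralogues best known from testis (Rpl10l and Rpl39l) and striated muscle (Rpl3l), while Rpl24 and Rpl29 are standard components of the large subunit. Short reads of many members match other loci as well, and the part of this in the levels was not tested: every 50-base stretch of the coding sequence of 28 genes, Rpl24 among them, occurs elsewhere in the genome, and only 14 genes had under 50% of such stretches shared. How the authors' counting treated reads with several matches is not given in the sources used here.

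**Figure D1:**
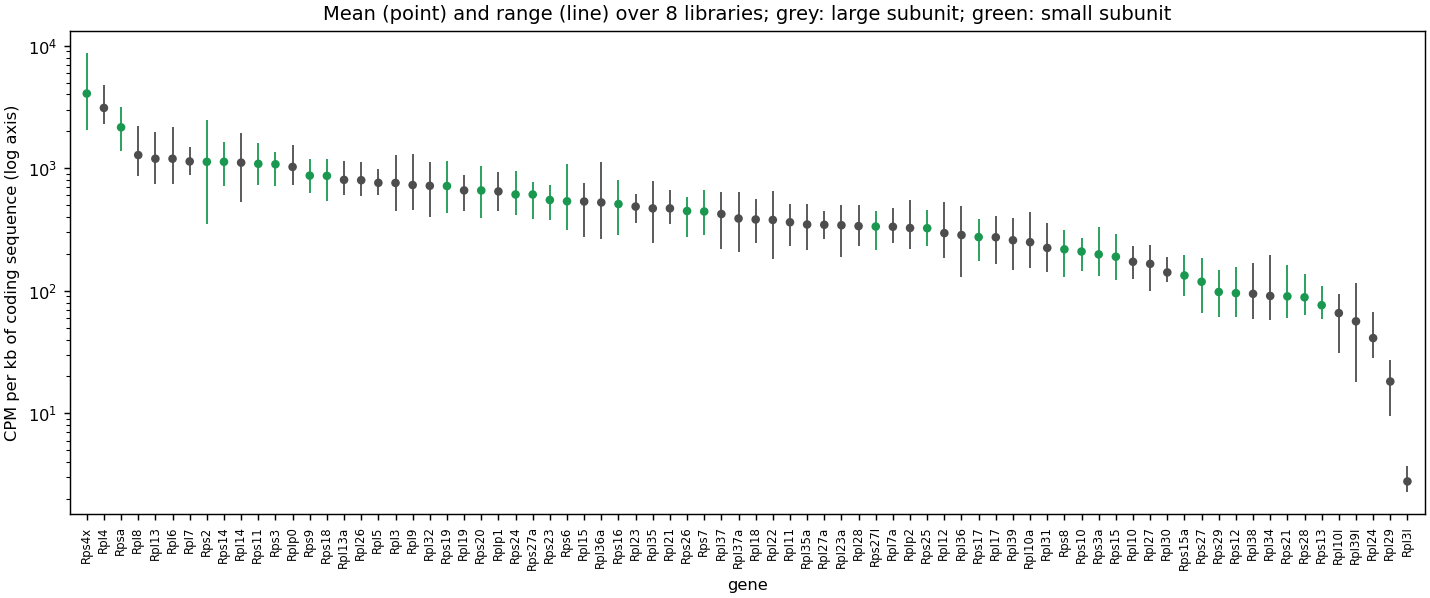
Mean level of 78 of the 80 ribosomal protein genes in CPM per kb of coding sequence (log axis), ordered by level, with lines from the lowest to the highest of the 8 libraries; grey is the large and green the small subunit. Rps4x stood at 4069 CPM per kb and Rpl3l at 2.79.

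The 80 genes together took 2.14% to 4.47% of the counts of a library. In the order R9wt D1, R9wt D5, R9del D1 and R9del D5, used for each location below, the share was 3.08%, 2.88%, 2.14% and 2.78% in space. On the ground it was 3.79%, 4.47%, 2.68% and 3.08%. The Ground_R9wt libraries were the highest and Space_R9del_D1 was the lowest. Relative to its own mean over the 8 libraries, the median gene was 0.47 higher on the log2 scale in Ground_R9wt_D1 and 0.45 higher in Ground_R9wt_D5, and 0.54 lower in Space_R9del_D1 (-0.54). In Space_R9del_D1, 76 of 80 genes lay below their own mean, against 5 in Ground_R9wt_D1 and 11 in Ground_R9wt_D5. No such medians or counts for other genes are given here to compare with. The 2 libraries with the highest shares were also the 2 deepest, and the part of depth in this was not tested.

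**Figure D2:**
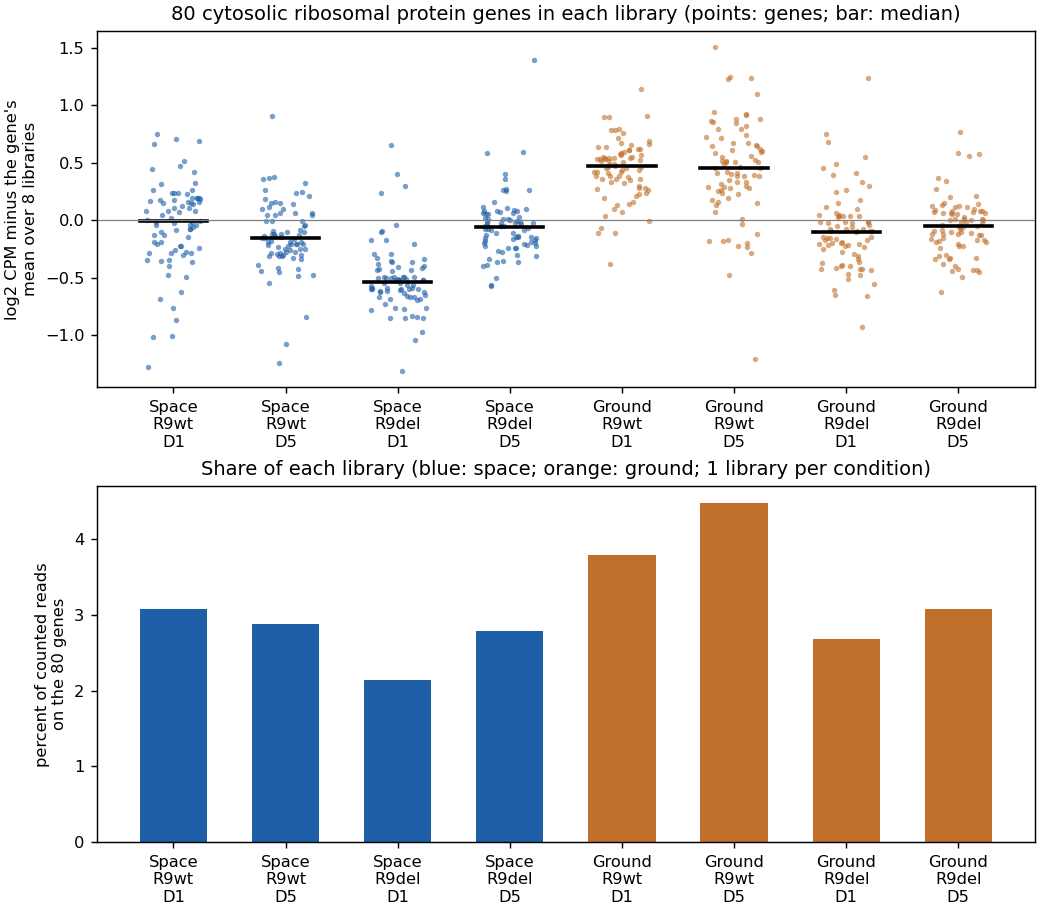
Top, log2 CPM of each of the 80 genes minus its own mean over the 8 libraries (points, with the median as a bar); bottom, percent of each library's counts on the 80 genes; blue is space and orange ground. The median was 0.47 in Ground_R9wt_D1 and -0.54 in Space_R9del_D1, and the share ran from 2.14% to 4.47%.

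Most members varied together from library to library, although no such correlation for other genes is given here to compare with the values below. The correlation of a gene with the mean of the other members over the 8 libraries, which share their depth and scaling, had a median of 0.85 and was above 0.7 for 58 genes. It was below 0 for 4 genes: Rpl15 (-0.34), Rpl10l (-0.14), Rpl39l (-0.40) and Rpl24 (-0.38). These 4 did not follow the family, and each had its highest level in an R9del library.

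**Figure D3:**
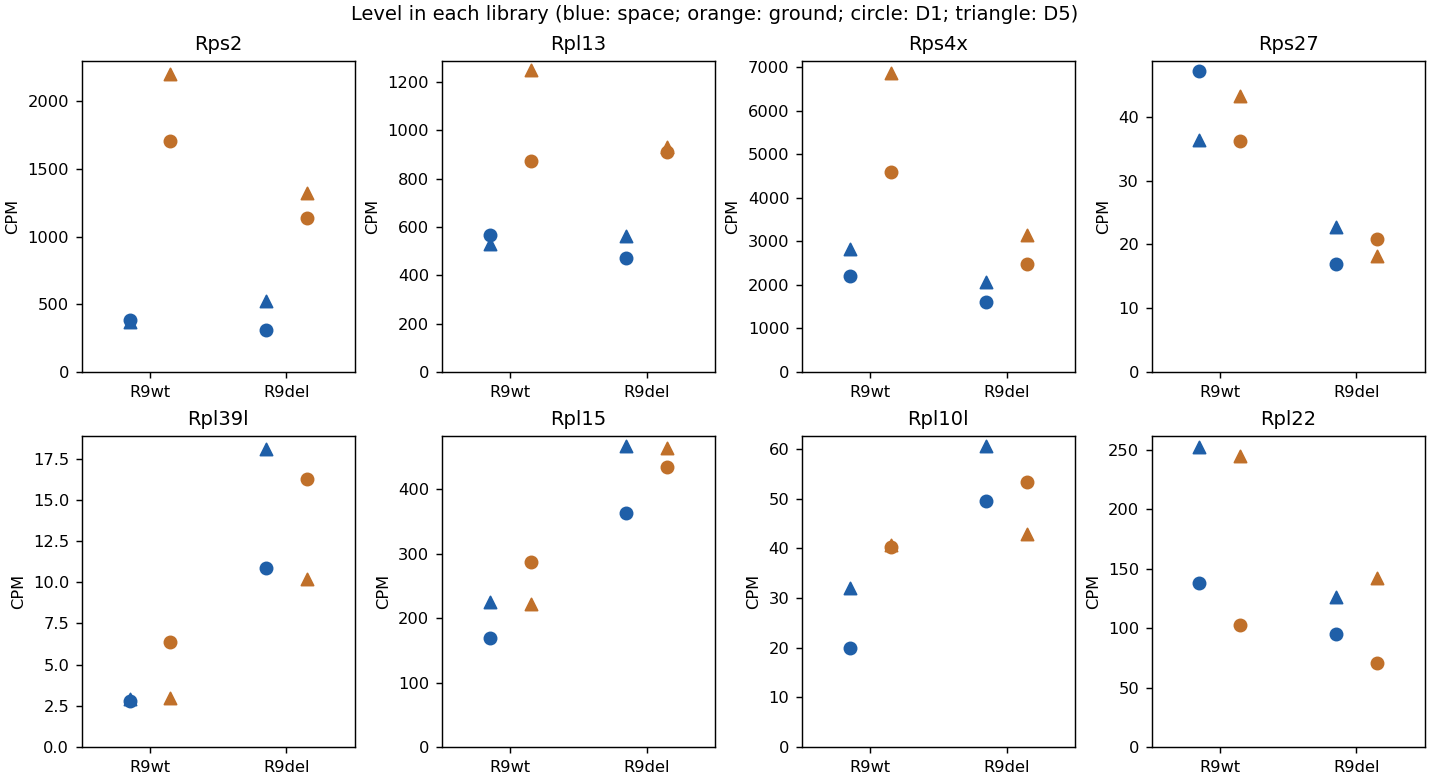
CPM (linear axes from 0) of 8 members in each of the 8 libraries, by genotype; blue is space, orange ground, circles D1 and triangles D5. Rps2 separated by location, with 312 to 523 CPM in space and 1139 to 2203 CPM on the ground, and Rpl39l by genotype, with 10.2 to 18.1 CPM in R9del and 2.81 to 6.36 CPM in R9wt.

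The first comparison asked how the 4 space libraries differed from the 4 ground libraries. Ribosomal protein genes were mostly lower in space: 76 of 80 had a log2 fold change below 0, against 49.1% of the 20544 genes tested, and their median was -0.35 against 0.01 for all genes. Only 2, Rps2 and Rpl13, passed edgeR's quasi-likelihood test at an adjusted p under 0.05, both lower, against 5.31% of all genes called lower. None was called higher by edgeR (1% of all genes) or by DESeq2's Wald test (3.93% of all genes). At an unadjusted p under 0.05, 15 genes were lower (all genes 11.7%) and 0 higher (all genes 7.02%). The share called lower at an adjusted p is below that of all genes, while the shares lower at an unadjusted p and with a log2 fold change below 0 are above it. The share lower without overlap between the groups (11.25%) is near that of all genes (9.38%). It was 12.9% for genes of at least 100 CPM. Among protein-coding genes with a coding sequence no longer than that of the longest member it was 13.9%. At an unadjusted p, 18.75% of members were lower, against 15.6% and 17.0% of these 2 sets. By share of counts, the family took 2.72% ± 0.408 in space and 3.51% ± 0.791 on the ground (SD, n = 4 each), and these ranges overlapped.

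Rps2, a protein of the small subunit near the mRNA entry channel (chr17:24855061-24858874, mm9, plus strand), had the largest difference of the family. It was counted at 385, 367, 312 and 523 CPM in space and at 1709, 2203, 1139 and 1324 CPM on the ground. Every space library was below every ground library, and it was the one member past a fold of 2 in each of the 4 pairs of matched libraries. The mean was 397 ± 89.8 CPM in space and 1594 ± 470 CPM on the ground (SD, n = 4 each), a log2 fold change of -2.01 ± 0.26 (SE; edgeR adjusted p = 0.0013) or 4.02-fold lower. The exact two-sided permutation test over these libraries gave p = 0.0286, the smallest that 4 against 4 allows. Any gene whose groups do not overlap gets this value, so it adds nothing to the lack of overlap.

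Of its coding 50-base stretches, 84.2% occur elsewhere in the genome, and its exons overlap Snhg9 and Snora64 over 8.09% of their length. Rps2-ps13, the pseudogene of Rps2 with the most counts, was called lower as well (log2 fold change -1.56, edgeR adjusted p = 0.0049), and reads of the pair cannot be separated here. Rps2 was called without each library in turn and under each scaling tried.

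Rpl13, a large subunit protein (chr8:125626250-125629144, plus strand), was the other gene called lower. Its levels were 565, 530, 470 and 561 CPM in space and 872, 1248, 909 and 932 CPM on the ground. The groups did not overlap, and the highest value was that of Ground_R9wt_D5. The log2 fold change was -0.90 ± 0.19 (SE; edgeR adjusted p = 0.0177, exact permutation p = 0.0286). Its adjusted p was 0.0540 without Space_R9wt_D5 and 0.0597 without Space_R9del_D1. All of its coding 50-base stretches occur elsewhere in the genome.

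Next to these stood genes with a large difference that did not pass the test. Rps4x (chrX:99380280-99384733, minus strand) had the highest level per kb of coding sequence. It was counted at 2202, 2823, 1611 and 2054 CPM in space and at 4590, 6878, 2475 and 3152 CPM on the ground. The values overlapped, since Space_R9wt_D5 was above Ground_R9del_D1, and its log2 fold change was -0.98 ± 0.33 (SE; edgeR adjusted p = 0.126).
Rpl35, at the exit of the nascent peptide tunnel, was counted at 144, 117, 91.4 and 142 CPM in space and at 256, 295, 181 and 173 CPM on the ground. It did not overlap between the groups, with a log2 fold change of -0.87 (edgeR adjusted p = 0.0656); 66.2% of its exon length overlaps Wdr38. With an offset for GC content its log2 fold change was -0.41 (adjusted p = 0.372). Rps7, a small subunit protein that also binds Mdm2, was counted at 201, 218, 168 and 193 CPM in space and at 381, 389, 254 and 272 CPM on the ground. It too did not overlap, and its log2 fold change was -0.73 (edgeR adjusted p = 0.0687).
Rpl31, also placed at the tunnel exit, gave -0.80 with no overlap (edgeR adjusted p = 0.0542), and 39.5% of its exons overlap Tbc1d8. Rpl34 gave -0.87 (adjusted p = 0.154) and Rpl29 gave -0.79 (adjusted p = 0.214). Without Ground_R9wt_D5, Rps4x gave -0.65 and Rpl34 -0.50.

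In all, 9 genes were lower in space with no overlap between the groups (Rps2, Rps7, Rpl31, Rpl28, Rpl35, Rps27a, Rpl18, Rps9 and Rpl13), against 9.38% of all genes. With the libraries matched on genotype and day as a replicate block, 5 genes were called lower (Rps2, Rpl13, Rpl35, Rps4x and Rps7; all genes 6.72% in that fit) and 0 higher (all genes 1.75%). At an unadjusted p under 0.05, 24 instead of 15 were then lower (all genes 13.5%). By the study's rule, which asks for a fold change of 2 or more with p below 0.05 before adjustment, 1 gene was lower, Rps2 (all genes 8.39%), and 0 were higher (all genes 2.58%). No gene was higher in space without overlap (all genes 5.06%).

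At the other end, the highest values were those of Rps28 (log2 fold change 0.15), Rpl22 (0.13), Rps29 (0.08) and Rps27 (0.06), while Rps26 was under 0.01 from 0. All of these were within 1 SE of 0. The stalk proteins that recruit translation factors gave -0.46 (Rplp0), -0.24 (Rplp1) and -0.18 (Rplp2), with adjusted p from 0.346 to 0.805. Leaving out 1 library gave -0.61 to -0.30 for Rplp0, -0.36 to -0.08 for Rplp1 and -0.30 to 0.13 for Rplp2. Rpl5 and Rpl11, which bind Mdm2 when ribosome assembly fails, gave -0.31 and -0.48. Rps6, the substrate of S6 kinase, gave -0.75 (adjusted p = 0.191; -0.43 without Ground_R9wt_D5), and Rps27a, made as a fusion with ubiquitin, gave -0.61 with no overlap (adjusted p = 0.113). Rpsa gave -0.21, Rps19 -0.15, Rps14 -0.35 and Rpl13a -0.41, and none of these passed the test. With 1 library left out, Rpsa ranged from -0.36 to -0.03, Rps19 from -0.30 to 0.12 and Rps14 from -0.50 to -0.21. The large subunit genes had a median of -0.37 and the small subunit genes a median of -0.35.

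**Figure D4:**
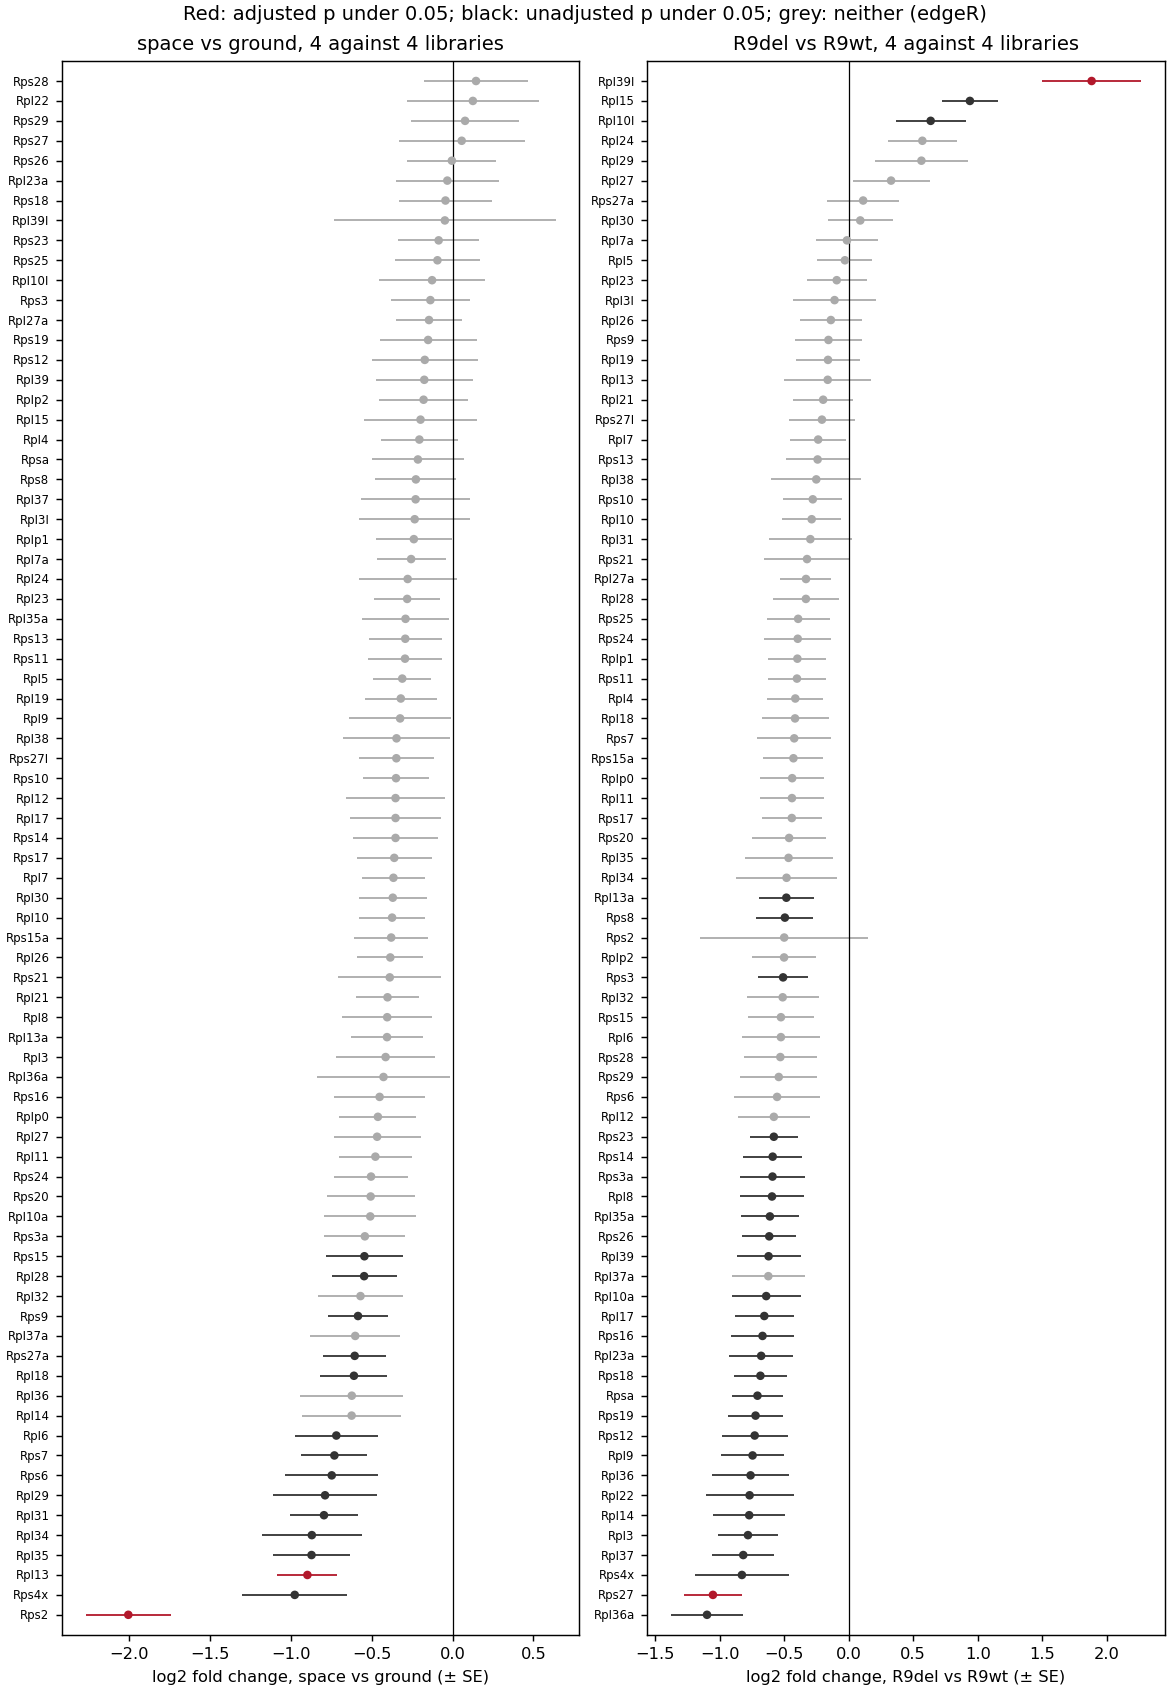
Log2 fold change (± SE) of 78 of the 80 genes in space against ground (left) and R9del against R9wt (right), ordered by size; red marks an adjusted p under 0.05 in edgeR, black an unadjusted p under 0.05 and grey neither. The medians over all 80 were -0.35 and -0.47, and Rps2, Rpl13, Rpl39l and Rps27 are the genes in red.

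The difference was not of the same size in each pair of matched libraries. The median log2 ratio of space to ground was -0.51 in R9wt D1 and -0.57 in R9wt D5, with 68 and 74 of 80 genes lower (all genes 53.9% and 50.1%). It was -0.37 in R9del D1, with 76 genes lower (all genes 49%), and 0.01 in R9del D5, with 37 lower and 43 higher (51.3% of all genes lower). A fold of at least 2 lower was reached by 8 genes in R9wt D1 (all genes 19.8%), 11 in R9wt D5 (19.3%), 2 in R9del D1 (12%) and 1 in R9del D5 (Rps2; 15.1%), and by none in the higher direction (all genes 14.1%, 16.8%, 9.09% and 7.85%). These pairs compare single libraries and carry no test. Across pairs, 33 genes were lower in 4 of 4 (all genes 19.4%) and 0 were higher in 4 of 4 (all genes 15.5%). The interaction of location with genotype had a median of 0.35 over the 80 genes, with 74 above 0 (all genes 51.5%, median 0.03), but edgeR called 0 of them (all genes 0%), 0 passed an unadjusted p under 0.05 (all genes 3.09%), and DESeq2 called 0.

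**Figure D5:**
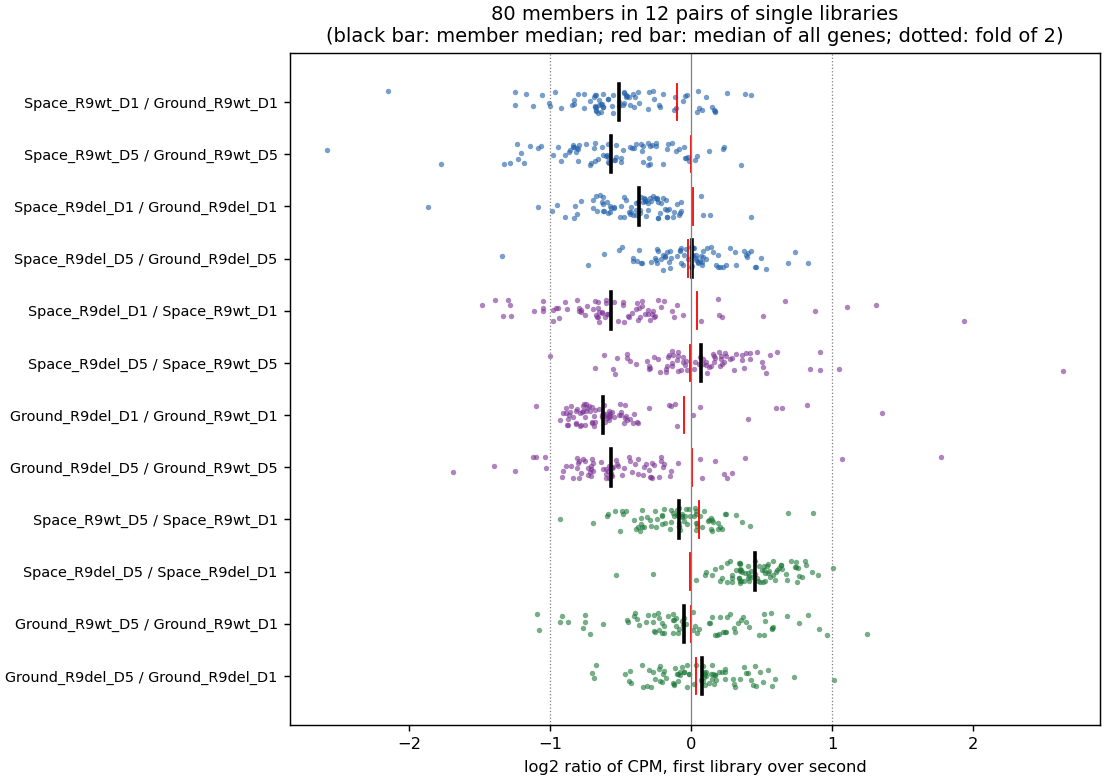
Log2 ratio of CPM of each of the 80 genes (points) in the 12 pairs of single libraries that differ in 1 variable, with black bars for the member median, red bars for the median of all genes and dotted lines at a fold of 2. In space against ground the medians were -0.51, -0.57, -0.37 and 0.01.

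Coding length moved with location across the transcriptome. Over the 15572 genes tested that have an annotated coding sequence, Spearman's rho of the log2 fold change in space with coding length was 0.30, as a description across genes. Genes with a coding sequence no longer than that of the longest member had a median of -0.16, between that of all genes and that of the family. Within the family, rho was -0.22. The part of transcript length in the family's difference was not tested. Genes of at least 100 CPM had a median of 0.00, and the 14 members with under 50% shared stretches, an alternative added after seeing the data, had a median of -0.26 with 13 below 0 and 0 called.

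Related genes gave the following values in space against ground, where 49.1% of all genes were below 0 and 5.31% were called lower. Of 71 ribosomal protein pseudogenes tested, 63 were below 0, with a median of -0.41 and 1 called lower. Of 75 genes for mitochondrial ribosomal proteins, which serve the separate ribosome of that organelle, 68 were below 0, with a median of -0.38 and 7 called lower. Among 6 ribosomal protein genes outside the naming rule, 1 was called lower, Rpl22l1, the paralogue of Rpl22 (log2 fold change -1.45, edgeR adjusted p = 0.0034).

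Of 18 other TOP mRNAs, 3 were called lower, against 5.31% of all genes: Tpt1 (-1.97), Eif3f (-2.45) and Nap1l1 (-0.94). The median of these 18 was -0.20. Of 38 ribosome biogenesis genes, with a median of -0.07, 2 were called lower, Rrs1 (-3.16) and Gar1 (-1.62). Utp15 (0.69) was the 1 called higher (all genes 1%). Of 14 mTOR pathway and TOP regulator genes, with a median of 0.24, 3 were called lower: Akt1s1 (-4.23) and Eif4ebp1 (-0.74), which both restrain mTOR signalling or translation, and Rheb (-1.86), which activates mTOR.

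The second comparison asked how R9del differed from R9wt, and values of a genotype are given in the order space D1, space D5, ground D1 and ground D5. Here 72 of 80 genes had a log2 fold change below 0 (all genes 53.8%), with a median of -0.47 against -0.06 for all genes. EdgeR's test called 1 gene lower, Rps27 (all genes 0.764%), and 1 gene higher, Rpl39l (all genes 1.04%). At an unadjusted p under 0.05, 28 genes were lower (all genes 11.2%) and 3 higher (all genes 9%). With 1 library left out, the 28 ranged from 11 (without Space_R9del_D1) to 35 (without Space_R9wt_D5). The count was 16 without Ground_R9wt_D1 or without Ground_R9del_D1, and 38 with the replicate block. The shares of all genes at this p in these fits are not given here. Groups did not overlap for 22 genes in the lower direction (all genes 7.2%) and for 3 in the higher direction (all genes 7.07%). The study's rule gave 2 lower, Rpl36a and Rps27 (all genes 7.63%), and 1 higher, Rpl39l (all genes 6.17%). The family took 2.67% ± 0.393 of counts in R9del and 3.56% ± 0.725 in R9wt (SD, n = 4 each), with overlapping ranges. Markers of other cell types moved with genotype too. The 3 neural markers matched summed to 102 to 132 CPM in R9del and 26.5 to 46.7 CPM in R9wt, with none at 0 in any library. Most of this gap was that of Tubb3, at 72.1 to 115 CPM in R9del and 6.24 to 26.8 CPM in R9wt, while Nes (16.9 to 35.6 against 14.8 to 26.4 CPM) and Pax6 overlapped between the genotypes. The 4 germ cell markers summed to 28.5 to 57.5 CPM in R9del and 60.9 to 232 CPM in R9wt, with none at 0, and of these only Ddx4 did not overlap (8.27 to 23.7 against 27.4 to 48.7 CPM). The 5 mesoderm markers summed to 6.91 to 18.6 CPM in R9del and 17.9 to 35.2 CPM in R9wt, with at most 1 at 0, and most of the sum was Eomes, which overlapped (4.55 to 14.4 against 10.2 to 31.1 CPM). All 5 had a log2 fold change below 0 with none called, and Tbx6 did not overlap (0.673 to 1.59 against 1.82 to 4.12 CPM). The 4 erythroid or blood markers summed to 2.45 to 6.37 CPM in R9del and 1.79 to 2.66 CPM in R9wt, with Cd3e the one without overlap (1.71 to 5.27 against 0.782 to 1.65 CPM) and Hbb-b1 at 0 in every library. Their part in the results on genotype was not tested.

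Rpl39l, a paralogue of Rpl39, which lines the exit tunnel, went against the family (chr16:10170319-10175004, plus strand). It was counted at 10.8, 18.1, 16.3 and 10.2 CPM in R9del and at 2.81, 2.88, 6.36 and 2.96 CPM in R9wt. Every R9del library was above every R9wt library, with means of 13.8 ± 3.94 and 3.75 ± 1.74 CPM (SD, n = 4 each). The log2 fold change was 1.88 ± 0.38 (SE; edgeR adjusted p = 0.0444), 3.68-fold higher, and none of its coding 50-base stretches occurs elsewhere in the genome. With 1 library left out, the adjusted p ranged from 0.0422, without Ground_R9wt_D1, to 0.131, without Ground_R9del_D1, and it was above 0.05 without any library other than Ground_R9wt_D1. In 4 of these 8 fits with 1 library left out, no gene of the whole table was called either way. Rpl39 itself was lower in each pair, at 22.9 to 40.3 CPM in R9del and 44.1 to 61.8 CPM in R9wt, with a log2 fold change of -0.62 (adjusted p = 0.201).

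Rps27, a zinc finger protein of the small subunit (chr3:90016593-90017573, minus strand), was the gene called lower. It was counted at 16.9, 22.7, 20.9 and 18.2 CPM in R9del and at 47.3, 36.5, 36.2 and 43.3 CPM in R9wt. The groups did not overlap, and its log2 fold change was -1.05 ± 0.23 (SE; edgeR adjusted p = 0.0499). Its call sat at the threshold: the adjusted p was between 0.0508 and 0.163 with any 1 library left out. All of its coding 50-base stretches are shared with other loci. Its paralogue Rps27l, inducible by p53, was counted at 55.1 to 99.6 CPM in R9del and 68 to 115 CPM in R9wt, with a log2 fold change of -0.21 (adjusted p = 0.70).

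Rpl15, a large subunit protein (chr14:19100337-19103905, minus strand), was the abundant member that went against the family. It was counted at 364, 468, 434 and 465 CPM in R9del and at 169, 226, 286 and 221 CPM in R9wt. The groups did not overlap, and the log2 fold change was 0.94 ± 0.21 (SE; edgeR adjusted p = 0.0573, exact permutation p = 0.0286). With the replicate block, matched on location and day, the adjusted p was 0.0200. All of the coding 50-base stretches of Rpl15 occur elsewhere in the genome. Its pseudogene Rpl15-ps3, at 126 to 232 CPM in the 8 libraries, gave -0.09 (edgeR adjusted p = 0.862). Rpl10l, a retrogene of the X-linked Rpl10 (chr12:67384368-67385388, minus strand), was counted at 49.6, 60.6, 53.3 and 42.9 CPM in R9del and at 20, 32.1, 40.3 and 40.7 CPM in R9wt. It did not overlap either, but did not pass the test (log2 fold change 0.63, adjusted p = 0.228), and Rpl10 gave -0.29 (adjusted p = 0.521). Rpl24 gave 0.57, Rpl29 0.56 and Rpl27 0.33, each with an adjusted p of 0.27 or more.

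Among genes lower in R9del without passing the test, Rpl36a was counted at 84.7, 119, 114 and 112 CPM in R9del and at 209, 164, 186 and 362 CPM in R9wt. The groups did not overlap, and the log2 fold change was -1.10 (edgeR adjusted p = 0.0736). Rpsa was counted at 1239, 1578, 1426 and 1576 CPM in R9del and at 1957, 2319, 2410 and 2814 CPM in R9wt, with no overlap and a log2 fold change of -0.71 (adjusted p = 0.0889). Rpl3, at the peptidyl transferase centre, was counted at 540, 660, 627 and 879 CPM in R9del and at 993, 960, 1156 and 1540 CPM in R9wt. It also did not overlap, and gave -0.78 (adjusted p = 0.113), while its muscle paralogue Rpl3l, at 1.66 to 2.67 CPM in the 8 libraries, gave -0.11. Rps19, the gene most often mutated in Diamond-Blackfan anaemia, gave -0.72 (adjusted p = 0.108) with no overlap.

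Of the other named genes, Rplp0, Rplp1 and Rplp2 gave -0.44, -0.40 and -0.50. With 1 library left out, their values closest to 0 were -0.27, -0.27 and -0.28. Rps14 gave -0.59, Rps6 -0.56 (-0.19 without Ground_R9wt_D5), Rpl13a -0.48 and Rpl11 -0.44. Rps4x gave -0.83 (-0.46 without Ground_R9wt_D5), Rpl37 -0.82, Rpl14 -0.77 and Rpl22 -0.77. Near 0 stood Rpl5 at -0.03, and Rps27a gave 0.11. None of these passed the test. The large subunit median was -0.43 and that of the small subunit -0.52. With the replicate block, 2 genes were called higher (Rpl39l and Rpl15; all genes 3.98% in that fit) and 8 lower (Rpl14, Rpl22, Rpl3, Rpl36a, Rpl9, Rps19, Rps27 and Rpsa; all genes 4.15%).

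Pair by pair, R9del against R9wt gave medians of -0.57 for the space D1 libraries, 0.07 for space D5, -0.63 for ground D1 and -0.57 for ground D5. In the space D5 pair 44 genes were higher and 36 lower (50.5% of all genes lower). In the space D1, ground D1 and ground D5 pairs, 70, 73 and 71 were lower (all genes 48.2%, 52.8% and 49.8%). Rpl39l was past a fold of 2 higher in each of the 4 pairs, Rpl15 in 3 of them and Rpl10l in space D1 alone (all genes 18.3% and 11.8% in space D1 and D5, and 10.9% and 16.5% in ground D1 and D5). A fold of at least 2 lower was reached by 10 genes in space D1 (all genes 15.9%), 0 in space D5 (13.5%), 1 in ground D1 (11.8%) and 7 in ground D5 (15%). Over the pairs, 36 genes were lower in 4 of 4 (all genes 20.3%) and 6 were higher in 4 of 4 (all genes 20%).

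The related lists differed in their medians. Of 71 pseudogenes, 66 were below 0 (all genes 53.8%) with a median of -0.56, while the 75 genes for mitochondrial ribosomal proteins had a median of 0.05. Ribosome biogenesis genes had a median of 0.40, with 34 of 38 above 0. None was called by edgeR (1.04% of all genes higher), and 9 of the 38 (23.7%) were higher at an unadjusted p under 0.05 (all genes 9%). Other TOP mRNAs had a median of -0.16 and mTOR and TOP regulators a median of -0.03, with no gene of either list called.

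The third comparison set D5 against D1. No member was called by edgeR (all genes 0%) or by DESeq2's Wald test (0.381% of all genes higher and 0.0586% lower). The median was 0.09 against -0.01 for all genes, with 50 of 80 genes above 0 (all genes 48.8%). This median was -0.031 without Space_R9del_D1, -0.075 without Ground_R9wt_D5 and 0.29 without Ground_R9wt_D1, with 38, 27 and 70 genes above 0. At an unadjusted p under 0.05, 1 gene was higher (all genes 3%) and 0 were lower (all genes 1.37%). No gene met the study's rule (2.43% of all genes higher, 1.06% lower), and the groups overlapped for every member (no overlap in 1.68% of all genes higher and 1.17% lower). The family took 3.30% ± 0.788 of counts at D5 and 2.92% ± 0.697 at D1 (SD, n = 4 each).

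The gene was Rpl22, an RNA-binding protein of the large subunit that ribosome assembly can do without (chr4:151699851-151708180, plus strand). It was counted at 252, 126, 245 and 142 CPM at D5 and at 138, 94.9, 103 and 70.5 CPM at D1, in the order space R9wt, space R9del, ground R9wt and ground R9del. It was higher at D5 in 4 of 4 pairs, while the groups overlapped. Means were 191 ± 66.5 and 102 ± 28.1 CPM (SD, n = 4 each), with a log2 fold change of 0.91 ± 0.32 (SE; edgeR adjusted p = 0.9996, exact permutation p = 0.0571). Next in order were Rps6 (0.54), Rpl12 (0.46), Rps4x (0.45) and Rpl23a (0.43). The lowest were Rps12 (-0.51), Rps21 (-0.46), Rps28 (-0.39), Rps29 (-0.37) and Rpl24 (-0.37). These values moved with single libraries. Rps6 was 0.17, Rpl12 0.17 and Rps4x -0.02 without Ground_R9wt_D5, Rpl23a was 0.27 without Space_R9del_D1, and the last 5 had their values closest to 0 between -0.30 and -0.14 with 1 library left out (Ground_R9wt_D1 for Rps12 and Rps21, Space_R9wt_D1 for Rps28 and Rps29, Ground_R9del_D1 for Rpl24).

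The pairs differed. Space_R9del_D5 against Space_R9del_D1 had a median of 0.45, with 2 of 80 genes lower (50.7% of all genes) and 78 higher, and Rpl38 past a fold of 2 (6.31% of all genes past it higher, 8.09% lower). The other pairs had medians of -0.08 (space R9wt), -0.05 (ground R9wt) and 0.08 (ground R9del), with 51, 42 and 37 genes lower (all genes 46.5%, 50% and 46.5%). Rpl22 was past a fold of 2 higher in both ground pairs (all genes 15% in R9wt and 7.04% in R9del), and Rpl39l and Rps21 past it lower in ground R9wt (all genes 14.1%). No gene was past it lower in ground R9del (all genes 5.69%), and none either way in space R9wt (14.9% higher, 12.7% lower). Rpl38, a large subunit protein known for its part in Hox mRNA translation, had a CPM of 12.6 in Space_R9del_D1 and of 25.3 in Space_R9del_D5. In the ground libraries its CPM was 35.8 and 18.7 for R9wt at D1 and D5, and 20.4 and 15.2 for R9del. Its interaction of location with day was 1.28 and that of Rpl39l was 1.35, both with an edgeR adjusted p of 0.743. The interaction of genotype with day had a median of 0.34 over the 80 genes (all genes 0.03). EdgeR called 0 members in the interactions of location with day and of genotype with day, with 2 (Rpl38 and Rpl39l) and 0 at an unadjusted p under 0.05 (all genes 6.4% and 4.34%), and DESeq2 called 0 in both. Of all genes, 0.00441% and 0% were called.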

How the data were processed

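RNA-seq gene counts of 8 mESC libraries were used, 1 per condition. Per the labels and the study's methods, mRNA libraries were sequenced as Illumina paired ends, checked with FastQC and aligned by the authors to mm9 with TopHat2 2.0.9; the counting program, annotation and strand setting are not given in the sources used here. The deposited values are raw counts per Ensembl gene. Names, coordinates and coding sequences came from the NCBIM37 (mm9) annotation, which held 64.6% of the 50686 IDs and 97.1% of counts.

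Counts were tested with edgeR 4.0.16 (R 4.3.3): TMM over the 8 libraries, filterByExpr with a minimum count of 10, a quasi-likelihood test of 4 against 4 libraries, and Benjamini-Hochberg adjustment over all genes tested, with calls at an adjusted p under 0.05. Interactions had the third variable as a covariate. Pairs of single libraries were compared by log2 CPM with a prior count of 2 (genes of at least 1 CPM). Single values were tested by exact two-sided permutation (scipy 1.17.1). The fits were tested on simulated data, and the outcome is not given here. The 3 comparisons use the same 8 libraries and are not independent, and p-values measure only the spread between these libraries. In a comparison of 4 against 4 the other variables add to the spread.

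Libraries matched on the other variables deviated together (r of 0.282 to 0.609 for location, 0.349 to 0.488 for genotype and 0.375 to 0.574 for day), and the conditions in the labels give this pairing. The replicate block was therefore run beside the 4 against 4 fit. Alternatives were DESeq2 1.42.0 size factors, library size alone, TMM without the family, no filter, DESeq2's Wald test, the block, an additive model, a GC offset and each library left out.

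The rule for naming members took, in each comparison, the 6 with the highest and the 6 with the lowest log2 fold change and those called. It added the 5 with the highest and the 5 with the lowest level per kb, and paralogues, stalk proteins and members of known further roles. Not all of these have a value printed in each comparison. Levels per kb used coding sequence instead of the exons planned, because annotated exons of some members hold retained introns. Members named outside this rule were chosen after their values were seen. The members and lists were chosen with earlier results of these data known. Rps4l was not analysed here. 20 members had no promoter entry in the RefSeq table. 2 members are not reported singly here; they stay in counts, medians and shares.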

Additional observations from a re-analysis of the deposited data

Results flagged for a closer look

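In each group of 4 libraries the sample farthest from the others was compared with the group's whole range; chance gives about 1 such sample in 20 groups, and 2 were found in the 78 groups looked at. For Rpl13 on the ground, Ground_R9wt_D5 was far above the other 3 libraries (1248 against 872 to 932 CPM), a gap of 0.841 of the range. Among the R9wt libraries, Rpl39l in Ground_R9wt_D1 was far above the others (6.36 against 2.81 to 2.96 CPM), a gap of 0.957 of the range.

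The family's median change from D1 to D5 was below 0 in the R9wt pairs and above 0 in the R9del pairs. It was -0.08 and -0.05 in R9wt, in space and on the ground (all genes 0.06 and 0), and 0.45 and 0.08 in R9del (all genes -0.01 and 0.04). Most of these medians were near 0, and in the ground R9del pair 43 genes were higher and 37 lower. The largest was that of the pair with Space_R9del_D1, the library with the lowest share of the family. The genotypes' means differed by 0.333. This difference of medians was not tested, and edgeR's interaction of genotype with day called 0 of the 80 genes.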

How the results depend on the processing

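The family's median stayed below 0 in space against ground (-0.26 to -0.44) and in R9del against R9wt (-0.37 to -0.56) under every alternative run, whereas in D5 against D1 it ranged from -0.075 to 0.29 with 1 library left out, and was -0.031 without Space_R9del_D1 and -0.075 without Ground_R9wt_D5. Counts of calls depended on the model. In space against ground, the 2 members called lower became 5 with DESeq2's Wald test, 5 with the replicate block, 7 with the additive model, 4 with the GC offset, 4 with the block and GC offset, 1 to 2 with 1 library left out and 0 among the 14 members with under 50% shared stretches. In R9del against R9wt, the 1 called lower became 0 with DESeq2 size factors, library size alone or no filter, 8 with the Wald test, 8 with the replicate block, 13 with the additive model, 9 with the block and GC offset, 0 with any 1 library left out and 0 among members with under 50% shared stretches. The 1 called higher became 0 without a filter, 2 with library size alone, the Wald test, the block, the additive model, the GC offset or the block and GC offset, and 0 to 2 with 1 library left out. Calls over all genes moved too. In space against ground 5.31% were called lower, against 7.70% with the Wald test, 7.72% with the additive model and 4.25% with the GC offset. In R9del against R9wt this was 0.764% against 5.21%, 3.89% and 0.964%. With the block and GC offset, 5.29% and 4.14% were called lower. In R9del against R9wt 1.04% were called higher, 0.265% without a filter, 1.20% with library size alone and 1.31% with the GC offset. That share was 4.78% with the Wald test, 3.98% with the block, 3.31% with the additive model and 4.81% with the block and GC offset. With 1 library left out it was 0% to 1.18%. With 1 library left out, 3.75% to 5.04% of all genes were called lower in space against ground and 0% to 1.30% in R9del against R9wt, where 4 of the 8 fits called no gene either way. The cause of these changes was not tested. The block and additive fits hold terms for the other variables, and other alternatives rest on fewer libraries or members. The block changed no call in D5 against D1. Rps4x in D5 against D1 ranged from -0.023, without Ground_R9wt_D5, to 0.83 with 1 library left out. Of 97 fold changes of named members, 29 changed sign under some alternative, and 28 of these were within 1 SE of 0 and are read as having no direction. Library size alone moved the median of all genes to 0.09 in space against ground and to 0.01 in R9del against R9wt. The lowest member count was 111, and how reads shared with pseudogenes bear on single levels was not tested.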
